A study of Mus musculus with 7 samples.

Results

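Among 7 RNA-seq libraries of mouse prostate, 3 held the seminal vesicle transcript Svs1 above 1000 FPKM and 4 held far less of it. FPKM are fragments per kilobase of gene, scaled to the depth of the library. The 3 are vehicle replicates 3 and 4 and LIT927 replicate 3, called Svs1-high here. The 4 are vehicle replicate 1 and LIT927 replicates 1, 2 and 4, called Svs1-low. All 7 came from prostate of mice with experimental autoimmune prostatitis (EAP), a gland inflammation induced by immunisation, which both treatments share. LIT927, which neutralises the chemokine CXCL12, had been injected into the peritoneum at 25 mg/kg per day for 14 days, and vehicle mice had received the solvent methyl-β-cyclodextrin for the same time. The labels give neither strain nor age, and they do not say whether each library came from a separate animal or from pooled tissue, so p-values measure only the spread between these libraries, which may be technical.

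The libraries were chosen by their own Svs1 value and not by a label. Svs1 stood at 11985 and 25355 FPKM in vehicle replicates 3 and 4 and at 11062 FPKM in LIT927 replicate 3. It stood at 80.9 FPKM in vehicle replicate 1 and at 123, 38.8 and 243 FPKM in LIT927 replicates 1, 2 and 4. The lowest library inside the threshold thus held 45.5 times the level of the highest library outside it, and no library lay near 1000 FPKM. Even the lowest value rested on 3520 recovered fragments. Because Svs1 chose the sides, and every other gene was measured in the same 7 RNA samples, differences between the sides are given below as descriptions, with no test.

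The male accessory glands lie close together around the bladder neck. The seminal vesicle, a paired gland, secretes the bulk of the seminal fluid proteins; the mouse prostate has anterior, dorsal, lateral and ventral lobes that wrap the urethra, each with its own secretory products; and the vas deferens, which carries sperm from the epididymis, joins the urethra nearby. Svs1 encodes a secreted protein related to copper amine oxidases and is known as a seminal vesicle product. In bulk tissue, fewer cells of a type and less RNA per cell cannot be told apart.

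The seminal vesicle secretory genes of mouse chromosome 2 are a family that arose by duplication, and their promoters are shown because neighbours with close sequences differed in how far they followed Svs1. The windows run from 250 bases before to 50 bases after the annotated start (RefSeq, build GRCm38.p6, whose chromosome coordinates are those of mm10), 5′ to 3′ on the strand of the gene. Capitals mark letter matches to the androgen response element half-site AGAACA or its reverse complement TGTTCT. They also mark matches to the TATA box TATAAA or its reverse complement TTTATA. Svs1 lies at chr6:48986611-48986910, plus strand; Svs4 at chr2:164278258-164278557, minus strand; Svs6 at chr2:164316501-164316800, plus strand. Svs5 lies at chr2:164332515-164332814, plus strand; Svs2 at chr2:164238292-164238591, minus strand; and Akr1b7, a vas deferens gene from the opposite side of the division, at chr6:34412112-34412411, plus strand.
Svs1: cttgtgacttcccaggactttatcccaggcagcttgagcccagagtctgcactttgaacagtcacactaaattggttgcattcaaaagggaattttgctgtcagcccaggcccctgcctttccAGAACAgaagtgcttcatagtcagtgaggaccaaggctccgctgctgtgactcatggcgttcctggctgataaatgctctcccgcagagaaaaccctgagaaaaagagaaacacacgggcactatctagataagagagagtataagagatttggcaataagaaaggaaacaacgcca
Svs4: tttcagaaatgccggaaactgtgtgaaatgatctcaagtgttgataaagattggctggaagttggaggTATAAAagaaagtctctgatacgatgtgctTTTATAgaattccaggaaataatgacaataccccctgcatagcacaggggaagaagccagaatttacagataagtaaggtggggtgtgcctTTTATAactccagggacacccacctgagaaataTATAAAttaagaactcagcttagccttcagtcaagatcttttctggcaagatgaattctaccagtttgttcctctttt
Svs6: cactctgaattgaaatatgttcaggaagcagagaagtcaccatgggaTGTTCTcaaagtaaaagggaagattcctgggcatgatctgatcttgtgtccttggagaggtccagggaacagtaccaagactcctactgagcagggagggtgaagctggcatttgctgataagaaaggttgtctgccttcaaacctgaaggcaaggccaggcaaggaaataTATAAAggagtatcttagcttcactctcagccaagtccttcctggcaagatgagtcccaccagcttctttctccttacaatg
Svs5: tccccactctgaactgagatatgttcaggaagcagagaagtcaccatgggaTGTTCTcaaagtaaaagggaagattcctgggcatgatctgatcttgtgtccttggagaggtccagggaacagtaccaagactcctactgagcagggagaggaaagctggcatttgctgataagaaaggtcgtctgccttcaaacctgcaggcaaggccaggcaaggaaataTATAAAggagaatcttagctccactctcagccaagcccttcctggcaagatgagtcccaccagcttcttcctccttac
Svs2: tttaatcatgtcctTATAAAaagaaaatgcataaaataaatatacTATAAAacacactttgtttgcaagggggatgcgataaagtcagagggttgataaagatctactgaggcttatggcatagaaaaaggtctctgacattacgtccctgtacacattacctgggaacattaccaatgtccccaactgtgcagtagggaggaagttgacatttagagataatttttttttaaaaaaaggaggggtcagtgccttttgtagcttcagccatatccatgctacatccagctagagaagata
Akr1b7: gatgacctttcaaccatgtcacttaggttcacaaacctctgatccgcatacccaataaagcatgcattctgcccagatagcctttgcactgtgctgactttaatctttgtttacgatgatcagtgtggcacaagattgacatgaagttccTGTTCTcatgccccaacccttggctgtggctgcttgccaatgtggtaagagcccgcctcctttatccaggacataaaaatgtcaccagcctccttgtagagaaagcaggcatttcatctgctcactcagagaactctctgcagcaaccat
The promoters of Svs6 and Svs5 were identical at 285 of 296 aligned bases, that is 96.3%. Each held 1 half-site and 1 TATA box in this window. Svs4 held 4 matches to the TATA box letters, at -182, -152, -61 and -28 relative to the start, and no half-site. Its matches at -152 and -61 were on the opposite strand. Svs2 held 2 matches to these letters, both over 200 bases before the start, and no half-site. Whether any match acts as a TATA box was not tested.

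Svs6 and Svs5, so alike in this window, differed in how far they followed the division. Svs6 was at 19407, 46494 and 28240 FPKM in vehicle replicates 3 and 4 and LIT927 replicate 3. In vehicle replicate 1 and LIT927 replicates 1, 2 and 4 it was at 189, 350, 275 and 487 FPKM. The lowest Svs1-high library was 39.9 times the highest Svs1-low library. Svs5, at 84257, 159484 and 85041 FPKM on the high side, was at 15125, 62038, 83218 and 40573 FPKM on the low side in the same order. Vehicle replicate 3 and LIT927 replicate 2 were thus nearly equal for Svs5, and after scaling the libraries by their median of ratios its sides overlapped. The ratio of Svs6 to Svs5 FPKM lay between 0.230 and 0.332 in the Svs1-high libraries and between 0.00331 and 0.0125 in the others. The sources used here do not say how fragments shared between such close relatives were assigned.

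The other members of the cluster, which spans 98.5 kb of chromosome 2 (164235929 to 164334394), also fell into genes that followed Svs1 and genes that did not. Svs4 was at 98171, 176232 and 98563 FPKM in the Svs1-high libraries (vehicle replicates 3 and 4, LIT927 replicate 3, the order kept from here on). It was at 2747, 15606, 13096 and 7462 FPKM in the Svs1-low libraries (vehicle replicate 1, then LIT927 replicates 1, 2 and 4, the order kept from here on). So Svs4 was abundant everywhere, and yet its sides lay 6.29-fold apart at their closest. Svs3a was at 6934, 14581 and 7255 FPKM against 44.9, 65.8, 28.6 and 121 FPKM. Svs3b was at 5815, 13774 and 6346 FPKM against 42.2, 14.5, 14.6 and 95.2 FPKM. The promoters of Svs3a and Svs3b were identical at 97.7% of bases, and the division of fragments between these copies is likewise uncertain. Svs2, a copulatory plug protein and the first gene of the cluster, went its own way: it was at 38437, 104622 and 49765 FPKM against 26188, 109219, 159456 and 76640 FPKM. Its highest library was on the Svs1-low side and its sides overlapped widely. Svs2 and Svs5 lie at the ends of the cluster, and Svs3b, Svs4, Svs3a and Svs6 lie in between. The ratio of Svs4 to Svs2 FPKM was 1.68 to 2.55 in the Svs1-high libraries and 0.0821 to 0.143 in the Svs1-low libraries.

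Pate4, a small secreted protein of the seminal vesicle and anterior prostate, went with Svs2 rather than with Svs1. It was at 8777, 23239 and 15223 FPKM against 6599, 35358, 43583 and 16781 FPKM. Svs2, Svs5 and Pate4 together took 12.02%, 28.4% and 14.5% of all fragments in the Svs1-high libraries and 5.71%, 24.5%, 34.5% and 16.2% in the Svs1-low libraries. Svs1, Svs3a, Svs3b, Svs4 and Svs6 together took 11.6%, 23.2% and 11.9% against 0.202%, 0.962%, 0.786% and 0.550%. A library low in Svs1 was thus not low in every seminal vesicle gene listed here. LIT927 replicate 2, with the lowest Svs1, had the highest Svs2 and the highest Pate4 of all 7. Which gland these transcripts came from was not tested.

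**Figure D1:**
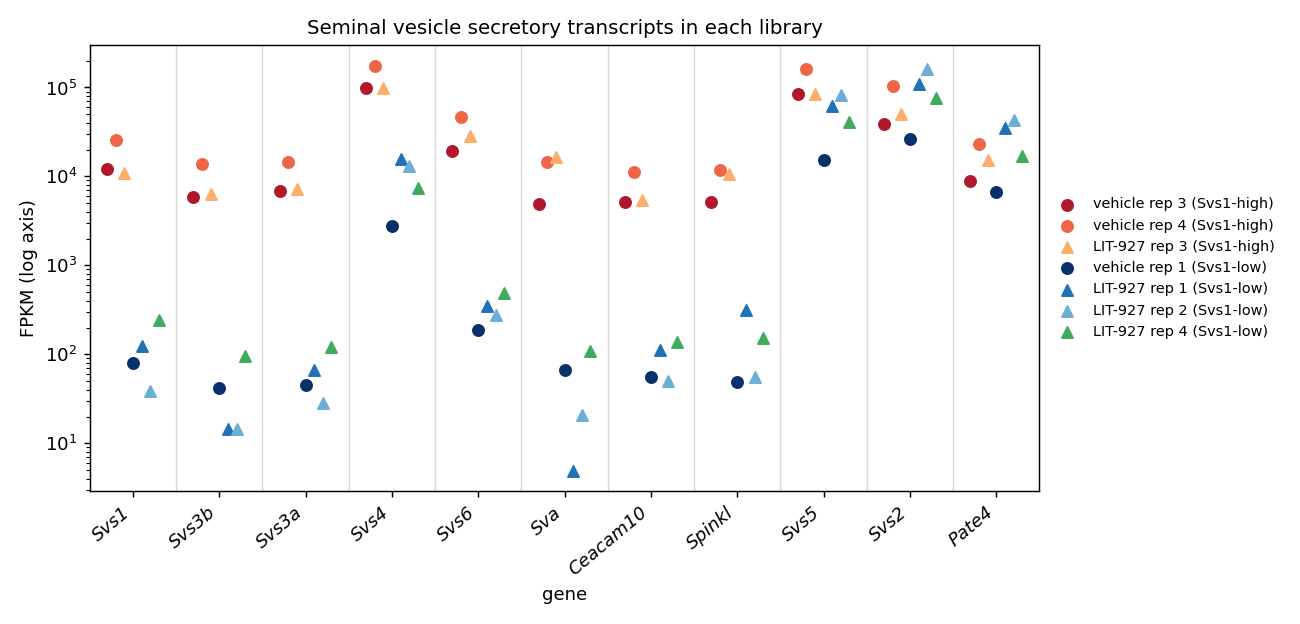
FPKM (log axis) of 11 secretory genes in each of the 7 libraries, warm colours for Svs1-high and cool colours for Svs1-low, circles for vehicle and triangles for LIT927. From Svs1 to Spinkl the 3 warm points lie above the 4 cool points; for Svs5 they nearly touch, and for Svs2 and Pate4 they mix.

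Across the 16018 other genes, 88 were higher in the Svs1-high libraries (0.549% of genes) and 574 were lower (3.58%), where a gene was counted if the sides did not overlap and the mean log2(FPKM + 1) differed by at least 1. With the libraries scaled by their median of ratios the counts were 185 higher (1.15%) and 205 lower (1.28%), so the balance between directions depended on the scaling: 13.3% of counted genes were higher as deposited and 47.4% after scaling. FPKM are shares of a library, and the top 10 genes of a library made up between 22.2% and 72.3% of its FPKM; total fragments were even, from 32023785 to 35240765. The median difference over all genes was -0.27 as deposited and -0.01 after scaling, and the differences below are to be read against it. Counting every gene whose sides did not overlap, whatever the size, gave 224 higher (1.4%) and 4284 lower (26.7%). Of the 88 and 574 genes, 87 and 203 were also counted after scaling. Without vehicle replicate 4 the higher count was 437, and without vehicle replicate 3 the lower count was 1137.

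The division of libraries is not the division of treatments, but it is uneven: 2 of 3 Svs1-high libraries and 1 of 4 Svs1-low libraries were vehicle. Within vehicle alone (replicates 3 and 4 against 1) and within LIT927 alone (replicate 3 against 1, 2 and 4), 60 of the 88 higher genes and 336 of the 574 lower genes differed by at least 1 on the log2 scale in both treatments. The median size was 1.74 in vehicle and 1.97 in LIT927 for the higher genes, and 1.13 and 2.01 for the lower genes. The equal sign in both treatments, and in part the size, followed from counting these genes over the same 7 libraries. Vehicle replicate 1 and LIT927 replicate 3 each stood alone on their side. The share of all genes past this size in both treatments was not counted. The comparison that the labels define, LIT927 against vehicle over all 7 libraries, called 0 of 16019 genes (0%; limma, adjusted p under 0.05), with 589 genes at an unadjusted p under 0.05 and 0 called by voom on recovered fragments. Svs1 itself averaged 8.41 ± 3.52 (SD, n = 4) on the log2(FPKM + 1) scale with LIT927 and 11.51 ± 4.50 (SD, n = 3) with vehicle, a difference of -3.10 (exact permutation p = 0.314, two-sided; the smallest p that 35 divisions allow is 0.0286).

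**Figure D2:**
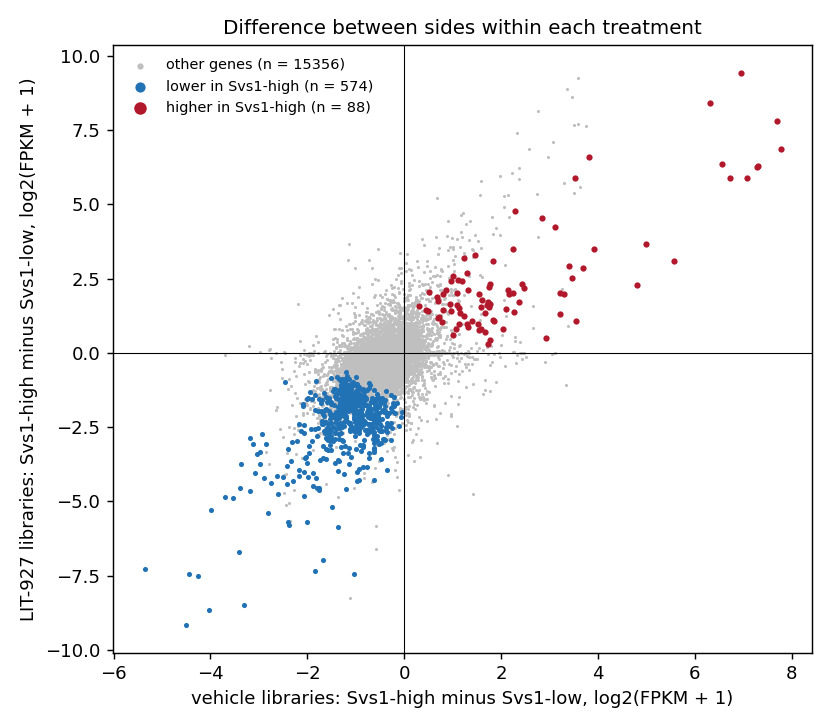
Each point is a gene: the difference between sides in log2(FPKM + 1) within the vehicle libraries (x axis) and within the LIT927 libraries (y axis), with the 88 higher genes in red, the 574 lower genes in blue and the others in grey. Counted genes lie in the quadrants of equal sign by the way they were counted. The seminal vesicle genes Svs3a, Svs3b, Svs6, Sva, Ceacam10 and Spinkl lie at the upper right, as do Spink1, Dnase2b and Pate14. Svs2 and Pate4 lie at the lower right.

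The 12 genes with the widest gap above the Svs1-low libraries were, by falling gap, Svs3b, Svs3a, Sva, Dnase2b, Svs6, Ceacam10, Pate14, Spinkl, Doxl2, Amy1, Orm3 and Svs4. Of these 7 belong to the list of 10 seminal vesicle secretory genes. In that list 8 members were counted higher and 0 lower, against 0.549% of all genes higher. Its median difference was 6.34 (6.80 after scaling, with 7 counted against 1.15% of all genes). This list, like the others below, was chosen with earlier results of these data known, so its count is a description only. Sva, seminal vesicle antigen, was at 4879, 14664 and 16634 FPKM against 66.7, 4.94, 20.6 and 109.7 FPKM. Ceacam10, a secreted member of the carcinoembryonic antigen family, was at 5121, 11122 and 5475 FPKM against 55.2, 113, 50.4 and 139 FPKM. Spinkl, a Kazal-type inhibitor relative, was at 5190, 11703 and 10741 FPKM against 48.6, 314, 55.9 and 154 FPKM. For each of these 3 genes every Svs1-high library was at least 16.5-fold above every Svs1-low library. Pate14, of the same small protein family as Pate4, did follow Svs1, at 4584, 8544 and 6118 FPKM against 58.3, 211, 34.5 and 150.4 FPKM.

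Doxl2 is the neighbour of Svs1 on chromosome 6, ending 8.1 kb before Svs1 begins (Doxl2 at 48974946 to 48978745, Svs1 at 48986861 to 48991725), and belongs to the same amine oxidase family. It was at 10.2, 20.3 and 11.4 FPKM against 0.0239, 0.0369, 0.0246 and 0.277 FPKM, which made it nearly absent from the Svs1-low side. Aoc1, the diamine oxidase gene of the same family nearby (48895255 to 48909188), went the other way (it was picked once its values had been seen), at 0.0207, 0.407 and 0.0437 FPKM against 1.08, 2.87, 2.04 and 1.29 FPKM. The neighbours of Svs1 thus divided the libraries in opposite directions.

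The remaining genes of this group were less abundant and of mixed function. Dnase2b, a DNase II relative, was at 88.2, 237 and 117 FPKM against 0.545, 0.229, 0.115 and 1.19 FPKM. Amy1, amylase, was at 25.6, 57.6 and 101 FPKM against 2.44, 0.386, 0.302 and 1.89 FPKM, and its fragments may be shared with other amylase genes. Orm3, an orosomucoid gene, was at 32.2, 36.3 and 24.7 FPKM against 0.0955, 2.81, 0.357 and 0.623 FPKM. Vehicle replicate 4 was the highest of the Svs1-high libraries for 10 of the 12 genes, and the exceptions Sva and Amy1 were highest in LIT927 replicate 3. All 12 were counted after scaling too. Their differences were 3.52 to 7.78 within vehicle and 3.10 to 9.42 within LIT927. In the comparison of treatments each had a limma adjusted p of 0.998.

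Of the 12 genes, 11 had a promoter in the RefSeq table. A half-site, AGAACA on either strand, was in the promoters of 6 of these 11 genes, in 19.0% of all 32851 promoters of this length and in those of 15.8% of the 12589 measured genes with a promoter. The TATA box letters TATAAA, on either strand, were in those of 7 of the 11 genes, in 13.6% of all promoters and in those of 10.1% of the measured genes. For the 12 genes lowest against the Svs1-low side, of which 10 had a promoter, the half-site was in 4 and the TATA box in 5. The full androgen response element, AGAACA and TGTTCT with 3 free bases between them, was in 3 of all promoters and in 0 of those of the named genes. Promoters of duplicated genes are not independent, so these are counts of letters only.

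On the other side stood Akr1b7, Crisp1 and other genes, 574 in all. The 12 with the widest gap were Crygc, Cited1, Kcnj16, Mcub, Serpina1f, Muc21, Akr1b7, Kif5c, Gsta2, Aqp2, Crisp1 and Bmp3. Akr1b7, an aldo-keto reductase of vas deferens secretion, stood at 84.5, 1597 and 15.9 FPKM in the Svs1-high libraries. In the Svs1-low libraries it was at 8408, 17099, 8867 and 5998 FPKM, which placed it among the abundant transcripts there. Crisp1, a cysteine-rich protein that coats sperm in the epididymis, was at 12.2, 289 and 2.62 FPKM against 1008, 2508, 1222 and 1034 FPKM. Serpina1f, a serpin of the epididymis, was at 1.78, 40.7 and 0.260 FPKM against 205, 377, 192 and 162 FPKM.

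Other genes of these 12 encode channels, structural proteins and signals. Aqp2, the water channel best known from the kidney collecting duct, was at 0.313, 8.10 and 0.110 FPKM against 53.6, 71.7, 33.8 and 30.7 FPKM. Kcnj16, a potassium channel subunit, was at 0.0753, 4.14 and 0.0361 FPKM against 26.2, 53.1, 24.0 and 20.1 FPKM. Crygc, a crystallin, was at 0.235, 21.7 and 0.347 FPKM against 217, 427, 186 and 112 FPKM. In these genes vehicle replicate 4 stood between the other Svs1-high libraries and the Svs1-low libraries. Cited1, a transcriptional co-regulator, was at 6.32, 11.9 and 11.3 FPKM against 87.3, 136, 84.0 and 58.7 FPKM. Bmp3, a ligand of the BMP family, was at 0.588, 1.31 and 0.655 FPKM against 13.7, 18.6, 7.03 and 7.39 FPKM. Vehicle replicate 4 was the highest of the Svs1-high libraries for 12 of the 12 genes, and all 12 were counted after scaling. Their differences were -6.14 to -2.69 over all libraries, and each had a limma adjusted p of 0.998 between treatments.

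**Figure D3:**
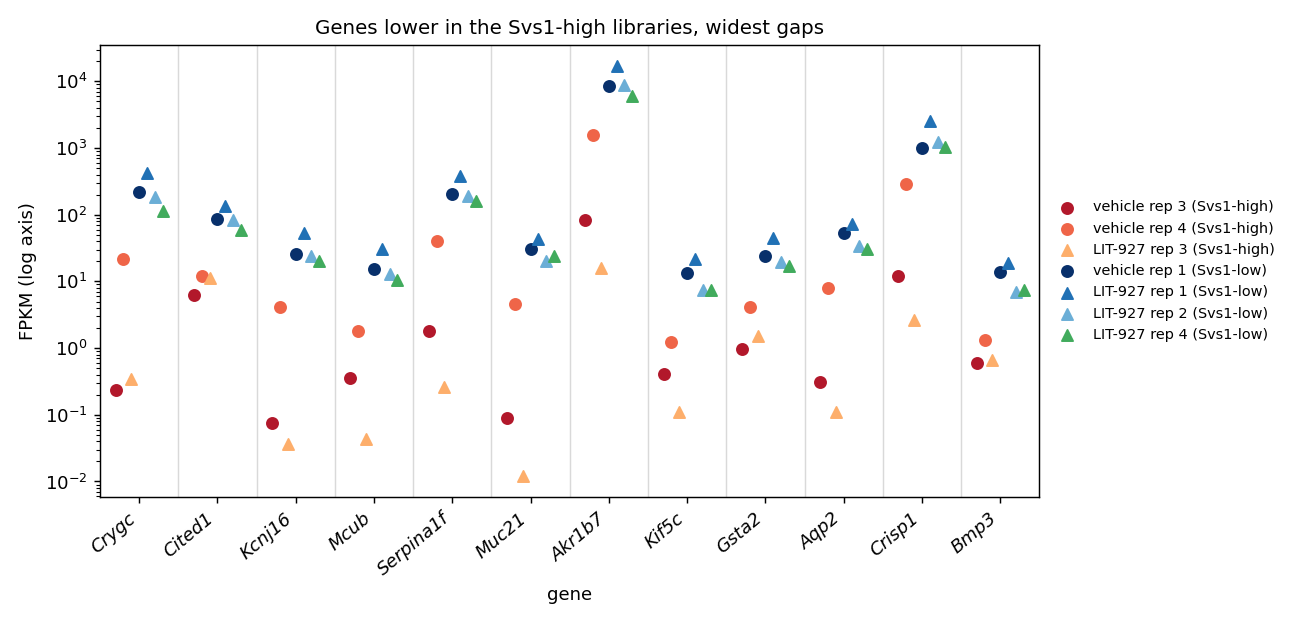
FPKM (log axis) of the 12 genes with the widest gap below the Svs1-low libraries, colours and shapes as for the secretory genes. The 4 cool points lie together and above the warm points for every gene, and vehicle replicate 4 is the highest warm point each time.

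The list of vas deferens and epididymis genes had 10 of 16 members measured, of which 7 were counted lower and 0 higher in the Svs1-high libraries, against 3.58% of all genes lower. Its median difference was -2.16 (-1.90 after scaling, with 5 counted lower, against 1.28% of all genes). Its summed level was 99.8, 1900 and 19.9 FPKM against 9453, 19700, 10148 and 7086 FPKM. Pax8, a transcription factor of the mesonephric duct, from which the vas deferens, epididymis and seminal vesicle derive, was at 0.230, 3.34 and 0.133 FPKM against 16.2, 36.9, 17.6 and 12.5 FPKM. Pax2, its relative, was at 2.69, 4.50 and 1.001 FPKM against 4.62, 13.2, 10.2 and 7.22 FPKM, with vehicle replicates 1 and 4 nearly equal. The epididymal genes Adam7, Rnase9 and Rnase10 were at or below 1.36 FPKM in every library. Lcn5, an epididymal lipocalin, was at 0 to 0.585 FPKM against 1.30 to 4.42 FPKM.

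Position genes of the urogenital tract, the Hox genes and their partners that mark levels along the ducts, had 6 of 21 measured members counted lower and 0 higher, against 3.58% of all genes lower, with a median difference of -0.71. After scaling 1 of 21 was counted lower, against 1.28% of all genes, and the median was -0.48. Emx2, a homeobox gene needed for the urogenital ducts, was at 3.64, 13.8 and 0.534 FPKM against 22.2, 64.3, 71.2 and 35.0 FPKM. Hoxd8 was at 12.6, 18.3 and 4.28 FPKM against 22.1, 49.98, 48.4 and 32.9 FPKM. Hoxb6 was at 18.2, 30.6 and 11.7 FPKM against 33.98, 79.4, 78.5 and 46.2 FPKM. These 3 genes were highest in LIT927 replicates 1 and 2. Hoxa13, which marks the tail end of the tract, was at 9.64, 3.18 and 9.24 FPKM against 11.7, 3.58, 2.93 and 7.03 FPKM and did not follow the sides.

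Genes of acid-secreting duct cells, which pump protons into the lumen of the epididymis and vas deferens, had 2 of 11 members counted lower and 0 higher, against 3.58% of all genes lower (median -1.26, and -0.83 with 0 counted after scaling). Foxi1, the transcription factor that specifies these cells, was at 0.514, 7.04 and 0 FPKM against 6.19, 22.6, 35.6 and 14.0 FPKM. Atp6v1g3, a proton pump subunit, was at 0.235, 1.65 and 0 FPKM against 2.09, 14.1, 19.9 and 8.39 FPKM. LIT927 replicate 3 was listed at 0 for both, and vehicle replicate 4 overlapped vehicle replicate 1 for Foxi1. Atp6v1c2, another pump subunit, was at 30.5, 13.4 and 5.18 FPKM against 84.2, 29.0, 7.21 and 61.8 FPKM. Its sides overlapped, and of the Svs1-low libraries LIT927 replicate 2 held the least of it and the most Foxi1. The difference was positive for 4 of the 11, Car4, Slc9a3, Cftr and Slc4a4, which were at or below 1.57 FPKM in every library. Clu, clusterin, an abundant secreted chaperone of the epididymis that was listed here with proximal prostate ducts, was at 345, 810.1 and 48.5 FPKM against 794, 3157, 4070 and 1769 FPKM; its sides overlapped only through vehicle replicates 4 and 1.

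Of 10 genes listed under prostate secretion, Spink1 and Apof were counted higher and 0 lower, against 0.549% of all genes higher. The other members overlapped between sides. The median difference was 1.90 (2.31 and 2 counted after scaling, against 1.15% of all genes). Sbp, the spermine-binding protein of the ventral lobe, was at 53139, 232 and 114916 FPKM against 339, 7.998, 5316 and 303 FPKM. Msmb, a secretory protein of the lateral lobe, was at 1020, 2.83 and 337 FPKM against 4.03, 6.62, 6.37 and 5.38 FPKM. Vehicle replicate 4 thus belonged with the Svs1-low libraries for both genes, and the high side was not of a kind. Defb50, a beta-defensin, repeated this pattern at 1888, 31.1 and 1001 FPKM against 61.7, 105, 31.3 and 78.1 FPKM. Apof, apolipoprotein F, was at 48.4, 9.96 and 42.9 FPKM against 8.85, 2.45, 3.42 and 6.43 FPKM, with vehicle replicate 4 close to vehicle replicate 1. Spink1, a trypsin inhibitor, was far higher in all Svs1-high libraries, at 14644, 7049 and 50277 FPKM against 127, 13.8, 1486 and 145 FPKM. Unlike Sbp and Msmb it was thus high in vehicle replicate 4 too, and which gland it came from was not tested.

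Pbsn, probasin, an androgen-dependent product of the dorsal and lateral lobes, crossed the sides. It was at 3096, 1283 and 233 FPKM against 11311, 3823, 129 and 8963 FPKM. Tgm4, the prostate transglutaminase that cross-links the copulatory plug, was at 2073, 1127 and 26.0 FPKM against 8361, 1953, 61.0 and 6706 FPKM. Both were high in vehicle replicate 1 and LIT927 replicate 4 and lowest in LIT927 replicates 2 and 3, which lie on opposite sides. The complement gene copies C1rb and C1s2 were likewise lowest in these libraries, C1rb at 167, 98.1 and 2.29 FPKM against 721, 179.5, 4.97 and 586 FPKM. LIT927 replicate 2, labelled as prostate like the rest, was lowest of all 7 for Pbsn and for Hoxb13 (13.4 FPKM, against 22.5 to 377 FPKM elsewhere).

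**Figure D4:**
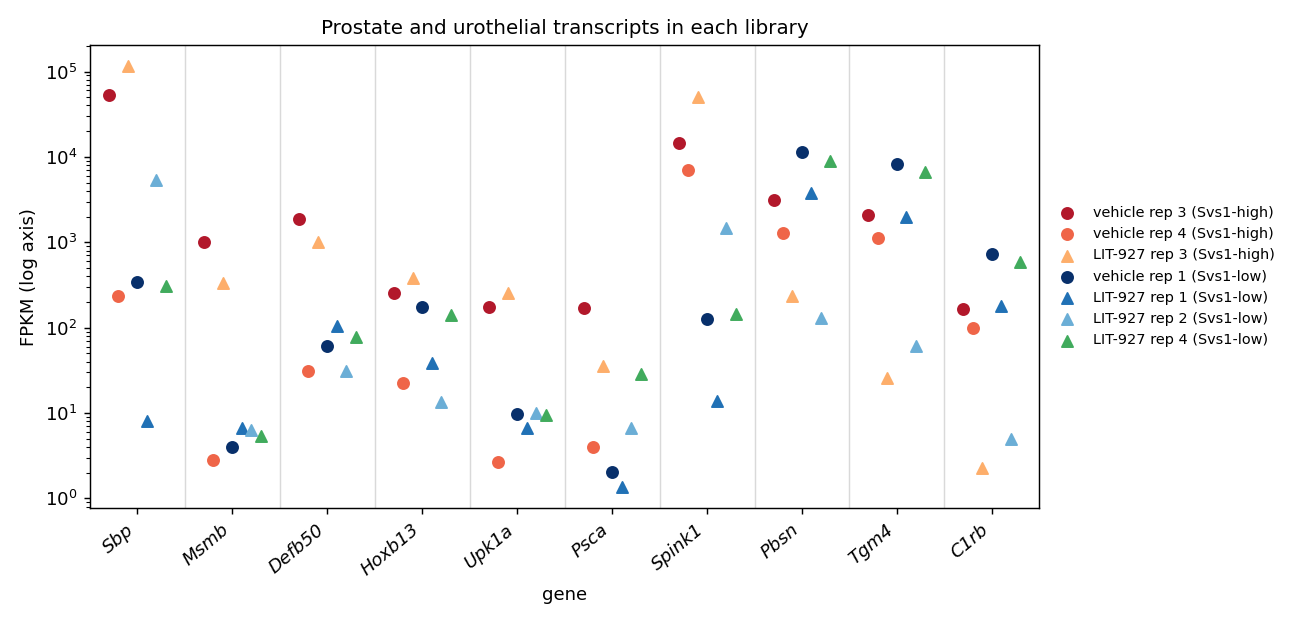
FPKM (log axis) of 10 genes from the prostate, ductal and urothelial lists in each library, colours and shapes as for the secretory genes. Sbp, Msmb, Defb50 and Upk1a are high in vehicle replicate 3 and LIT927 replicate 3 but not in vehicle replicate 4, while Pbsn, Tgm4 and C1rb are lowest in LIT927 replicates 2 and 3.

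Urothelial genes, which mark the lining of bladder and urethra, also set vehicle replicate 4 apart from the other Svs1-high libraries. In the list of 9, 1 member was counted higher and 1 lower, against 0.549% and 3.58% of all genes (median 1.17). After scaling 3 were counted higher and 0 lower, against 1.15% and 1.28% of all genes (median 1.34). Upk1a, a uroplakin of the surface membrane, was at 172, 2.64 and 253 FPKM against 9.78, 6.64, 10.1 and 9.56 FPKM. Upk3a, another uroplakin, was at 21.4, 1.02 and 27.2 FPKM against 0.376, 0.0277, 0.0553 and 0 FPKM. Upk1b, at 38.3, 14.4 and 19.7 FPKM against 26.5, 15.0, 11.3 and 27.3 FPKM, overlapped between sides. Upk2 also overlapped, at 28.5, 8.62 and 25.5 FPKM against 6.96, 13.2, 7.70 and 4.89 FPKM. Vehicle replicate 4 held the least Upk1a of all 7 libraries. Gata3, a transcription factor of urothelium and of the mesonephric duct, was the member counted lower, at 38.6, 38.8 and 13.7 FPKM against 74.9, 70.9, 57.7 and 66.1 FPKM. Among 11 genes of proximal duct epithelium 1 was counted higher and 0 lower (median 1.25, and 1.58 with 2 counted higher after scaling). The counted gene was Aqp3, at 3.22, 0.113 and 4.52 FPKM against 0.101, 0.0174, 0.0174 and 0.0813 FPKM. Psca, prostate stem cell antigen, was at 171, 4.01 and 35.3 FPKM against 2.05, 1.36, 6.61 and 29.0 FPKM. Krt7, a duct keratin, was at 52.9, 4.18 and 25.6 FPKM against 5.45, 9.86, 7.85 and 6.37 FPKM. The sides overlapped for Psca and Krt7.

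Keratins of luminal cells varied little across the libraries. Krt8 was at 182, 108 and 178 FPKM against 146, 187, 139 and 148 FPKM, and Krt18 at 308, 189 and 319.9 FPKM against 336, 316, 326 and 345 FPKM. The sides overlapped for both genes. In the list of prostate luminal identity, 0 of 10 members were counted higher and 1 lower, against 0.549% and 3.58% of all genes. The member counted lower was Sord, sorbitol dehydrogenase. After scaling Sord was not counted, and the list median turned from -0.09 to 0.36. Basal epithelium, with 0 of 12 counted in either direction, turned from -0.13 to 0.17.

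Stromal genes were lower in the Svs1-high libraries by list median. The share of all genes counted lower was 3.58%, or 1.28% after scaling. For smooth muscle, which sheathes the vas deferens and prostate ducts, 2 of 12 members were counted lower and 0 higher, and the median was -1.34 (-0.94 and 1 counted after scaling). Mylk, the myosin light chain kinase of contraction, was at 113, 112 and 19.4 FPKM against 363, 261, 187 and 273 FPKM. Tagln, transgelin, was at 1063, 786 and 268 FPKM against 2604, 1045, 669.6 and 1474 FPKM, so its sides overlapped. Summed smooth muscle level ran from 973 to 4387 FPKM on the Svs1-high side and from 3334 to 11503 FPKM on the other. Fibroblast genes had 1 of 12 counted lower, Lum, lumican, and a median of -0.66 (-0.30 after scaling), and endothelial genes 0 of 11 and -0.88 (-0.54 after scaling). LIT927 replicate 3 held the lowest sum for all 3 lists, and it was the lowest of the Svs1-high libraries for 497 of the 574 lower genes. What part these stromal levels have in the other differences between sides was not tested. Skeletal muscle genes had 0 of 12 counted, with a median of 1.42 (2.35 within vehicle and -0.33 within LIT927). The difference was positive for 9 and negative for 3, Acta1 (-0.80), Ckm (-0.90) and Tnnc2 (-1.37). Mb, myoglobin, was at 126 FPKM in vehicle replicate 3 and at 0.587 to 3.22 FPKM elsewhere. Acta1 was highest in vehicle replicate 1, at 863 FPKM.

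The counts among immune genes are to be read against 0.549% of all genes higher and 3.58% lower, or 1.15% and 1.28% after scaling. Of 12 T and NK cell markers 1 was counted higher and 0 lower (median 0.21; after scaling 0.32 and 3 counted). That gene, Gzmb, the cytotoxic protease granzyme B, was at 2.29, 3.75 and 4.24 FPKM against 0.177, 0.162, 0.121 and 0.0948 FPKM. The T cell receptor subunit gene Cd3g, at 1.44, 3.93 and 1.95 FPKM against 1.65, 0.359, 1.11 and 0.449 FPKM, overlapped between sides. Macrophage (0 of 12), B and plasma cell (0 of 7), mast cell (0 of 5) and MHC class II genes (0 of 7) were counted in neither direction, with medians of -0.40, -0.65, -0.13 and 0.01, which became -0.05, -0.52, 0.11 and 0.34 after scaling. Cd74, the class II invariant chain, was highest in vehicle replicates 4 and 1, at 397 and 318 FPKM, which lie on opposite sides; the other 5 libraries held 42.0 to 107 FPKM. Neutrophil genes had 1 of 9 counted lower (median 0.02, and 0.08 after scaling with 0 counted). That gene, S100a8, a calprotectin subunit, was at 1.36, 2.46 and 0.0795 FPKM against 2.80, 3.43, 3.20 and 3.29 FPKM. S100a9, the other subunit, overlapped between sides, at 2.87, 2.27 and 0.059 FPKM against 3.80, 0.409, 0.117 and 1.31 FPKM. The difference was positive for 6 of the 9 neutrophil genes.

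**Figure D5:**
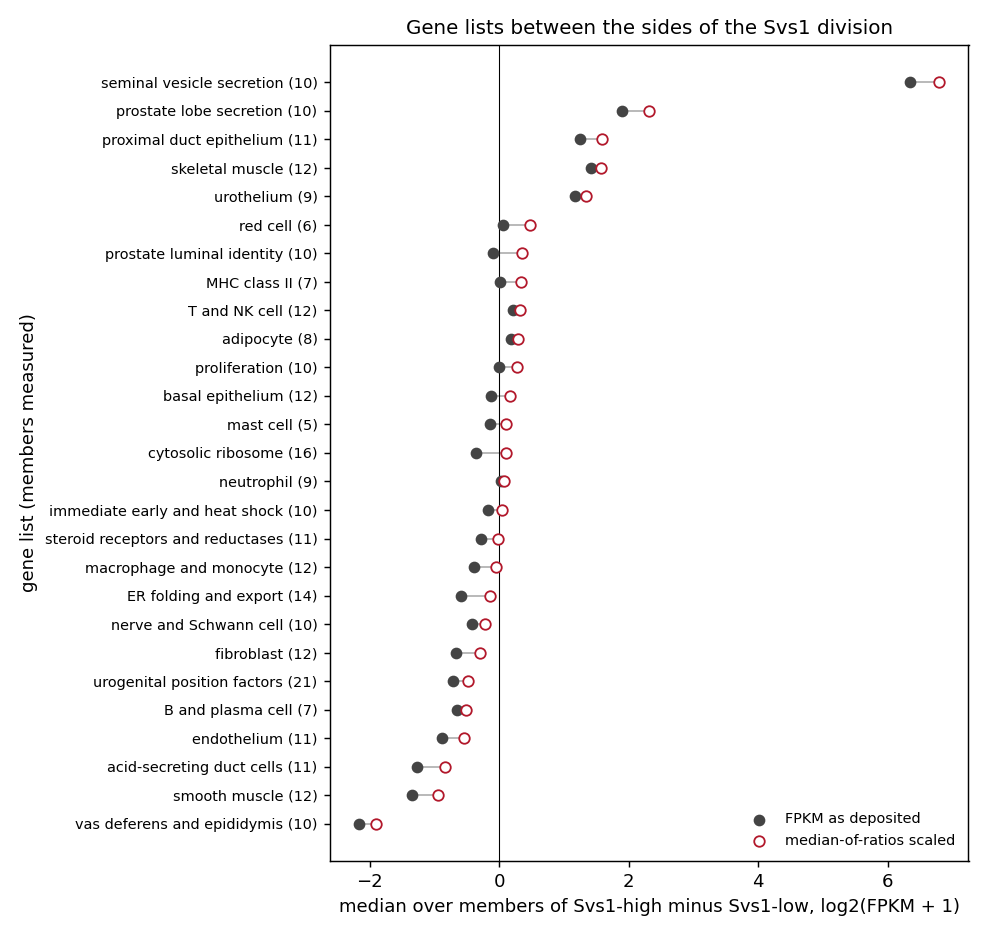
Median over the measured members of each of 27 gene lists of the difference between sides in log2(FPKM + 1), as deposited (filled) and after median-of-ratios scaling (open). Seminal vesicle secretion lies farthest to the right at 6.34 and the vas deferens and epididymis list farthest to the left at -2.16.

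The counts among general cell functions and the remaining cell types are likewise to be read against 3.58% of all genes lower. After scaling the shares of all genes were 1.15% higher and 1.28% lower. Genes of ER folding and export had 1 of 14 counted lower, Pdia4 (median -0.59, and -0.13 after scaling), cytosolic ribosome genes 0 of 16 (-0.35 and 0.11), proliferation genes 0 of 10 (-0.00 and 0.28) and immediate early and heat shock genes 1 of 10, Egr1 (-0.18 and 0.04). Steroid receptors and reductases had 0 of 11 counted (-0.28 and -0.02), nerve and Schwann cell genes 0 of 10 (-0.41 and -0.22), red cell genes 0 of 6 (0.06 and 0.48, with 1 counted higher after scaling) and adipocyte genes 1 of 8 lower, Plin4 (0.18 and 0.30). Pdia4, Egr1 and Plin4 were not counted lower after scaling. Over the 27 lists, 0 of 288 measured members were called between treatments by limma.

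Fads2, the delta-6 desaturase that the series title places downstream of CXCR4, and its neighbour Fads1 on chromosome 19 fell on the same side as the vas deferens genes. Fads2 was at 11.4, 30.1 and 2.61 FPKM in the Svs1-high libraries and at 137, 250, 128 and 107 FPKM in the Svs1-low libraries, with a gap that ranked 13 among the lower genes. Its difference between sides was -3.73 (-3.30 after scaling), -2.82 within vehicle and -5.39 within LIT927, while its difference between treatments was 0.67 (SE 1.49; limma adjusted p = 0.998). Fads1, the delta-5 desaturase, was at 9.07, 12.5 and 1.90 FPKM against 61.5, 98.9, 49.6 and 44.0 FPKM. Both genes were thus lower in every Svs1-high library of either treatment. Pparg, the lipid-sensing nuclear receptor also in the title, was at 1.17, 0.0838 and 0.599 FPKM against 0.184, 0.0724, 0.0272 and 0.119 FPKM, with overlapping sides.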

How the data were processed

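Total RNA from mouse prostate was sequenced in 7 libraries, 3 vehicle and 4 LIT927 per the labels. The deposited values are the authors' FPKM, a unit read from the values, since the headers name them just expression. Per the submitters' processing notes, HISAT2, HTSeq, fastp and build mm10 were used; the sources here give no versions, annotation or strand setting. Whole fragments were recovered from the steps in the FPKM for 16019 of 16019 genes, within 0.01 fragments, and served for depth, for shares of fragments and for voom. A count test that had been listed as an alternative was replaced by voom, as the files hold no counts.

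Libraries were divided at 1000 FPKM of Svs1. Genes were counted on FPKM as deposited, pseudocount 1, with no filter. Named genes are, per direction, the 12 with the widest gap among genes at 5 FPKM or more in the lowest library of the higher side, and from each list up to 4 members of highest mean FPKM; other genes were chosen after their values were seen. Members and gene lists were chosen with earlier results of these data known. Treatment was tested with limma 3.58.1 (R 4.3.3), trend, Benjamini-Hochberg adjustment, and code was tested on simulated data. Coordinates and promoters come from RefSeq GRCm38.p6, where 15948 symbols matched. Promoters were aligned globally with free end gaps. Other steps ran in Python 3.11.15 with SciPy 1.17.1, pandas 2.3.3, matplotlib 3.10.9 and NumPy 2.4.6. Alternatives were scaling, pseudocount, filter, fold criterion, each treatment alone, each library left out and a replicate block.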

Additional observations from a re-analysis of the deposited data

Results flagged for a closer look

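Among the 4 LIT927 libraries, replicate 3, the only Svs1-high library of that treatment, stood far from the rest on the log2(FPKM + 1) scale for several named genes. It was the highest for Dnase2b (6.88), Svs6 (14.79), Doxl2 (3.63), Upk1a (7.99), Gzmb (2.39) and Ier2 (4.86). It was the lowest for Serpina1f (0.33), Akr1b7 (4.08), Crisp1 (1.86), Gata3 (3.88), Wfdc10 (0.00), Srd5a2 (0.94), Ckm (2.17), Tnnc2 (2.96), C1qb (2.93), S100a8 (0.11) and Ltf (0.05). LIT927 replicate 4 was the highest for Hba-a1 (7.77) and Calr (9.77). The highest was also replicate 3 for Msmb (8.40), Upk3a (4.82), Slc4a4 (1.36) and Cftr (0.10), and the lowest for Mylk (4.35) and Lum (0.61). Replicate 2 was the highest for Car4 (0.05) and replicate 4 for Slc9a3 (0.16). Car4, Slc9a3 and Cftr were near the floor, with at most 33, 93 and 14 fragments in any library. In all, 156 genes named in the text or by its rule were examined. By chance about 1 in 20 groups would show such a sample, but that rate does not apply to genes chosen because they separate the Svs1-high libraries, such as Dnase2b, Svs6, Doxl2, Serpina1f, Akr1b7 and Crisp1: their choice favours a distant replicate 3. Replicate 3 is also the library that the Svs1 division sets against the other LIT927 libraries.

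For 8 of these 156 genes the sides did not overlap within either treatment and differed in opposite directions in the 2 treatments. Genes whose means differed in opposite directions but whose libraries overlapped are not among the 8, and the difference between treatments was not tested. Ltf, lactoferrin, was at 23.4 and 9.19 FPKM in vehicle replicates 3 and 4 against 4.85 FPKM in replicate 1, a difference of 1.43, while in LIT927 replicate 3 it was at 0.0341 FPKM against 20.4 to 34.3 FPKM, a difference of -4.75. Svs2 differed by 1.28 in vehicle and -1.15 in LIT927, and Pate4 by 1.11 and -0.96. Mb differed by 3.35 in vehicle and -1.09 in LIT927, and Hoxa13 by -0.93 and 0.97. The values were 0.14 and -0.40 for Adam7, -0.17 and 0.05 for Ngp and -0.46 and 0.37 for Birc5. Adam7 and Ngp were near the floor, at or below 0.430 and 0.588 FPKM in every library. With LIT927, Ngp was at 0.0537 FPKM in replicate 3 against 0.0494 FPKM in replicate 4. It had at most 23 fragments in any library, so its direction there rests on very few fragments.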

How the results depend on the processing

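The counts of genes moved with the setting. The higher count of 88 became 185 with median-of-ratios and 176 with upper-quartile scaling, 141 with a pseudocount of 0.1, 224 with no fold criterion, 141 within vehicle and 550 within LIT927. The lower count of 574 became 205 and 229 with these scalings, 1239 with a pseudocount of 0.1, 4284 with no fold criterion, 1421 within vehicle and 1694 within LIT927. With 1 library left out in turn the higher count ran from 83 to 437 (without vehicle replicate 4) and the lower count from 394 to 1137 (without vehicle replicate 3). With scaling as well, a setting chosen after seeing the data, the higher count was 211, 599 and 181 without vehicle replicate 3, vehicle replicate 4 and LIT927 replicate 3, and 212, 189, 232 and 200 without vehicle replicate 1 and LIT927 replicates 1, 2 and 4. The lower count was 266, 498, 124, 347, 183, 273 and 230 in the same order. The fold criterion and the pseudocount act through the definition of the count, and the cause of the other changes was not tested. A filter at 1 FPKM in 3 libraries gave 82 and 572. Over the 155 genes and 27 list medians examined, 112 and 16 values moved by more than the spread between libraries, and 1438 and 254 did not. Of the list medians, 14 of 27 changed sign in at least 1 setting, 6 of them with median-of-ratios scaling. Leaving out libraries cannot turn the sign of a gene whose sides do not overlap. Between treatments limma called 0 genes in every setting run. Genes at an unadjusted p under 0.05 numbered 589 in the main setting. The fewest were 259, under the filter that kept 11151 genes. The most were 2544, with the side of the Svs1 division as a term, an unplanned setting. With 3 vehicle and 4 LIT927 libraries, 0 called genes do not show that treatment was without effect. Svs1 between LIT927 and vehicle differed by -5.68 to -1.54 with 1 library left out.

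The labels do not say whether the replicate numbers pair the libraries. Deviations from the group means correlated across genes at -0.65 to 0.64 between libraries of different numbers. For the shared numbers 1, 3 and 4 they correlated at 0.57, 0.70 and -0.24, so these values do not decide it. With a replicate block over these 3 numbers limma called 0 genes, and the Svs1 difference was -2.07 (exact p = 0.75 over sign changes). Sign changes over 3 pairs cannot give a p under 0.05, so this p does not decide whether Svs1 differed between treatments. A count test in edgeR or DESeq2 was not run, since the files hold FPKM. Total depth was even, at 32023785 fragments or more per library, but genes at 0 ran from 200 in vehicle replicate 3 to 800 in LIT927 replicate 3. Low values rest on few fragments, as for S100a8 with 1 fragment in its lowest library.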
